A study of Mus musculus with 6 samples.

Results

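The 9 genes described here encode proteins of the node of Ranvier and of the paranode and juxtaparanode that flank it: Scn8a, Sptbn4 and Bcan at the node, Nfasc, Cntn1 and Cntnap1 at the paranode, and Cntn2, Kcna1 and Kcna2 at the juxtaparanode. They were taken by symbol from a table of 52636 genes and were compared between 3 hND6 and 3 mCherry libraries of mouse optic nerve. The hND6 libraries carry the treatment label of a mutant human ND6 with the substitution T14484C, named by its position in human mitochondrial DNA, and the mCherry libraries carry the name of a red fluorescent protein. ND6 is a subunit of respiratory complex I. The same protocol text, a lentivirus with the mutant gene injected into the eyes, stands beside both groups, so what the mCherry mice received is taken from the treatment label alone. The strain, the age, the time after injection, the cells that the vector reached and whether each library was a separate animal are not given in the sources used here. Each p-value below therefore reflects variation among 6 libraries, and some of that variation may be technical.

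Myelinated axons conduct impulses from node to node. At the node, voltage-gated sodium channels are held by ankyrin G and a beta spectrin, and a matrix of brevican and related proteins surrounds them. At the paranode, the axonal proteins contactin 1 and Caspr (Cntnap1) bind the glial form of neurofascin, which seals the myelin loops to the axon. At the juxtaparanode, Kv1 potassium channels lie under the myelin together with contactin 2 and Caspr2. In the optic nerve the axons belong to retinal ganglion cells, whose cell bodies lie in the retina, while the oligodendrocytes, their precursors and the astrocytes lie in the nerve itself. Neurofascin and contactin 2 are made by oligodendrocytes as well as by neurons.

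The levels are FPKM, fragments scaled to exon length and to the reads of the library, so that levels of different genes can be set side by side. Reads assigned to genes, recovered from the FPKM, ran from 20253637 to 34057682 in hND6 libraries and from 25718356 to 34758873 in mCherry libraries. Each of the 9 genes had between 271 and 34346 reads in each library. Glial marker genes were high throughout: the oligodendrocyte gene Mbp stood at 1818 FPKM or more and the astrocyte gene Gfap at 907 FPKM or more in every library. These levels do not tell optic nerve from other white matter of the central nervous system. The library mCherry 3 stood apart. Its 12 general neuron markers summed to 612 FPKM, against 49.9 to 73.8 FPKM in the other mCherry libraries, and the hND6 libraries held 52.8 to 245 FPKM, the highest in hND6 1. All 12 of these markers, among them Snap25, and all 10 forebrain neuron markers were highest in mCherry 3. The forebrain neuron markers summed to 12.3 to 96.3 FPKM in hND6 libraries and 7.66 to 355 FPKM in mCherry libraries, and the forebrain transcription factor gene Neurod6 was at 0 in hND6 2 and mCherry 1. A sum of photoreceptor markers stood at 211 FPKM in hND6 2 and at 6.96 FPKM or less in each other library. In bulk RNA, fewer cells of a type and less RNA per cell cannot be told apart.

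No member differed between the groups beyond the spread of the libraries. All 9 genes passed the filter on low values (0.5 FPKM or more on average), and 0 of 9 passed an adjusted p of 0.05 in limma on log2(FPKM + 0.5), fitted over 16157 genes, where 0.0433% of all tested genes passed in either direction. At an unadjusted p under 0.05 there were 0 of 9, against 15.2% of all tested genes (9.11% higher and 6.05% lower in hND6), and limma's voom on recovered reads also gave 0 at either threshold. The groups overlapped for all 9 genes, whereas they did not overlap for 22.8% of all tested genes (12.6% higher and 10.2% lower in hND6). The log2 fold changes of hND6 over mCherry were positive for Bcan, Kcna1, Kcna2 and Cntn2 and negative for the other 5, with a median of -0.20 beside -0.010 for all tested genes. With each library scaled to the same FPKM sum, as TPM does, all 9 were negative, but there the median of all genes lay at -0.14, and relative to it the same 4 genes were positive (0.052 to 0.12). The range across libraries set the members apart from each other more than the group did: the highest library exceeded the lowest by 12.1-fold for Scn8a and 6.08-fold for Sptbn4, and by 1.21-fold for Bcan and 1.26-fold for Kcna1.

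**Figure D1:**
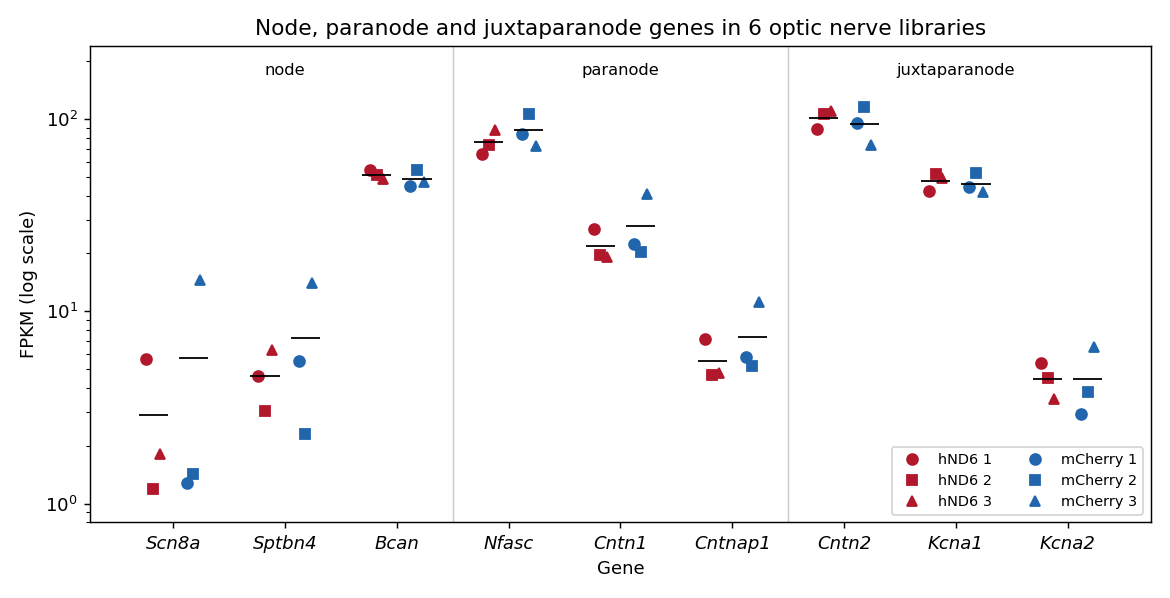
FPKM of the 9 genes on a log axis, hND6 libraries in red and mCherry libraries in blue, with 1 symbol per library and a black line at each group's mean. The groups overlap for each gene, and mCherry 3 is the highest library for Scn8a, Sptbn4, Cntn1, Cntnap1 and Kcna2.

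Promoter sequences of 4 members are shown to set the pair whose levels varied most across libraries, Scn8a and Sptbn4, beside Cntn2 and Bcan, which varied less. They are from RefSeq on GRCm38.p6, run 5′ to 3′ on the gene's strand from 250 bases before to 50 bases after the listed start, and have each CpG dinucleotide in capitals. The table held 7 of the 9 members, and Kcna1 and Cntnap1 were not matched. Where several starts were listed (Scn8a 2, Sptbn4 4, Cntn1 3 and Nfasc 2), the start nearest the deposited gene start was used. It lay 259 bases from the deposited start for Scn8a, 126 for Bcan and 34431 for Nfasc, and 10 or fewer for the others. The windows of Scn8a and Bcan thus lie outside the gene spans given below.
Scn8a (chr15:100870395-100870694, plus strand): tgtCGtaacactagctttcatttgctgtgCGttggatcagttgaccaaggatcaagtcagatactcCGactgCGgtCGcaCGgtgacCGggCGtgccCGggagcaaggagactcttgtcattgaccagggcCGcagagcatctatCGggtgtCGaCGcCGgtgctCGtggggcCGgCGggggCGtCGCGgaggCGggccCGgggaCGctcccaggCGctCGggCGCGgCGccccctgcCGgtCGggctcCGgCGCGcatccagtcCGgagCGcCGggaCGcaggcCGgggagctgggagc
Sptbn4 (chr7:27446540-27446839, minus strand): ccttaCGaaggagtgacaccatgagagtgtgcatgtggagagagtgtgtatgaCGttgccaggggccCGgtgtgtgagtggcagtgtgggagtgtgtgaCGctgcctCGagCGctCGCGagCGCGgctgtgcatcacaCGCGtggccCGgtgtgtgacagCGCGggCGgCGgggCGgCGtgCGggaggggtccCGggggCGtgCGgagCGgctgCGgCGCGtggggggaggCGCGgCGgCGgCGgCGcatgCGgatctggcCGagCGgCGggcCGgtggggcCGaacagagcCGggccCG
Cntn2 (chr1:132542891-132543190, minus strand): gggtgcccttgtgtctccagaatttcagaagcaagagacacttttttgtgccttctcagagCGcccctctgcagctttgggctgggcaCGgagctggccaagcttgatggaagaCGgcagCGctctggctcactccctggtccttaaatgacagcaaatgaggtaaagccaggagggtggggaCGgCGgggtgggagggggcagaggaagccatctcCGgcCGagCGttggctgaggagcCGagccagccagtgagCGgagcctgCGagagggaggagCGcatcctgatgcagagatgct
Bcan (chr3:88000307-88000606, minus strand): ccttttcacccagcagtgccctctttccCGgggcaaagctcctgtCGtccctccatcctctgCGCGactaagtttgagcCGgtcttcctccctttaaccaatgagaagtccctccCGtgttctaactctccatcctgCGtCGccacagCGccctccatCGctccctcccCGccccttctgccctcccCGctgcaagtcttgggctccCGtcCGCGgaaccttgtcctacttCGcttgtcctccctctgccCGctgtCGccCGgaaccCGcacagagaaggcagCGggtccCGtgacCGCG
The promoters of Scn8a and Sptbn4 held 38 and 41 CpG, that of Cntn2 13 and that of Bcan 24, where the median of 32851 mouse promoters of the same length was 7. Their G and C content was 70.0% for Scn8a, 73.7% for Sptbn4, 61.3% for Cntn2 and 64.0% for Bcan, against a median of 52.7%. Of the members not shown, Kcna2 held 31 CpG, Cntn1 9 and Nfasc 7. The SD of the log2 level over the 6 libraries was 0.38 for Kcna2, 0.41 for Cntn1 and 0.24 for Nfasc, beside 0.11 for Bcan. Whether CpG count goes with this spread was not tested. The GC box GGGCGG, searched on both strands, began 87 and 79 bases before the Sptbn4 start and 82 bases before the Bcan start (there on the opposite strand, as CCGCCC), and was not found in the Scn8a or Cntn2 windows. It occurs in 35.7% of all promoters in the table. The TATA motif TATAAA, found in 13.6%, and the SOX core ACAAAG, found in 18.7%, had no match in any of the 7 members' windows on either strand. These matches describe letters and not sites in use.

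Scn8a encodes Nav1.6, the main sodium channel of mature nodes. It lies on chromosome 15 from 100870904 to 101045938 of the mouse build mm10, as do all gene positions given here, and spans 175 kb. Scn8a stood at 5.63, 1.198 and 1.80 FPKM in hND6 replicates 1 to 3, against 1.28, 1.43 and 14.5 FPKM in mCherry replicates 1 to 3. The values of 4 libraries lay close together under 2 FPKM, and hND6 1 and mCherry 3 stood above them. The log2 fold change was -0.37 with a 95% interval of -2.58 to 1.85 (limma adjusted p = 0.875). Without mCherry 3 it was 0.64 (-0.74 to 2.02, adjusted p = 0.552), and without hND6 1 as well it was 0.093 (-0.55 to 0.74, adjusted p = 0.858). The same 2 libraries had the highest sums of general neuron markers, 245 FPKM in hND6 1 and 612 FPKM in mCherry 3, and the part of these cells in the Scn8a values was not tested.

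Sptbn4 encodes beta IV spectrin, which ties the ankyrin of the node to the actin skeleton. The gene spans 90.2 kb on chromosome 7 (27356383 to 27446599). Its level was 4.61, 3.02 and 6.26 FPKM in hND6 libraries and 5.54, 2.31 and 14.0 FPKM in mCherry libraries, again with mCherry 3 on top. The hND6 values lay within the range of the mCherry values. Its log2 fold change was -0.34 (-1.76 to 1.09, limma adjusted p = 0.818) and turned to 0.27 (-0.76 to 1.299, adjusted p = 0.749) without mCherry 3. Sptbn4 differed from Scn8a in that hND6 1 was not raised beside the other hND6 libraries, with a ratio to their mean of 0.995, where that ratio was 3.75 for Scn8a.

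Bcan encodes brevican, a lectican proteoglycan of the matrix around nodes and synapses, and lies on chromosome 3 (87987531 to 88000230). It had 54.1, 51.1 and 48.9 FPKM in hND6 libraries, against 44.8, 54.1 and 46.9 FPKM in mCherry libraries. Of the 9 genes it was the most even. The hND6 mean was 51.3 ± 2.62 FPKM and the mCherry mean 48.6 ± 4.91 FPKM (SD, n = 3 each), and the log2 fold change of 0.082 had an interval of -0.15 to 0.31 (limma adjusted p = 0.724). The SD of its log2 level over the 6 libraries was 0.11, above that of 12.5% of tested genes. Astrocytes make brevican together with oligodendrocyte precursors. Astrocyte markers summed to 2230 to 2620 FPKM in hND6 libraries and 1630 to 2130 FPKM in mCherry libraries, with Gfap the largest part. These sums did not overlap, where 12.6% of all tested genes were higher in hND6 without overlap. Of the 10 astrocyte markers 8 had a positive and 2 a negative log2 fold change. Precursor markers summed to 319 to 379 FPKM in hND6 libraries and 259 to 344 FPKM in mCherry libraries, which overlapped. The part of these cells in the Bcan values was not tested.

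Nfasc encodes neurofascin, with a glial form at the paranode and a neuronal form at the node, and the gene total used here holds both. It spans 177 kb on chromosome 1 (132564690 to 132741757). Levels were 65.9, 73.7 and 87.3 FPKM in hND6 libraries and 83.3, 106 and 72.2 FPKM in mCherry libraries. The hND6 values of 2 libraries lay under 75 FPKM, as did that of mCherry 3. On the log2 scale the fold change was -0.20 (-0.61 to 0.22, limma adjusted p = 0.626). Without mCherry 3 it was -0.32 (-0.72 to 0.073, adjusted p = 0.304), the smallest adjusted p of any member in any of the 22 other settings. Without mCherry 2, the highest library, it was -0.046.

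Cntn1 encodes contactin 1, the axonal partner of Caspr, which precursors of oligodendrocytes also make. At 291 kb it is the longest of the 9 genes (chromosome 15, 92051165 to 92341967). It was at 26.8, 19.7 and 19.1 FPKM in hND6 libraries, against 22.4, 20.4 and 40.9 FPKM in mCherry libraries. The groups overlapped, with mCherry 3 the highest and hND6 1 next. The log2 fold change of -0.29 (-0.97 to 0.39, limma adjusted p = 0.666) was 0.017 (-0.39 to 0.42, adjusted p = 0.962) without mCherry 3.

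Cntnap1 encodes Caspr, whose loss in mice disrupts the septate-like junctions of the paranode, and lies on chromosome 11 (101176041 to 101190724). Its level was far lower than that of Cntn1, at 7.17, 4.67 and 4.802 FPKM in hND6 libraries and 5.78, 5.21 and 11.2 FPKM in mCherry libraries. The order of the upper 3 libraries was that of Cntn1: mCherry 3, then hND6 1, then mCherry 1. Its log2 fold change was -0.33 (-1.07 to 0.41, limma adjusted p = 0.649), and -0.010 (-0.52 to 0.497, adjusted p = 0.982) without mCherry 3.

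Cntn2 encodes contactin 2 (TAG-1), which links the axon and the glial membrane at the juxtaparanode. It was the most abundant member, with a mean of 98.2 FPKM over the 6 libraries, above 97.8% of tested genes. Its levels were 89.0, 107 and 110 FPKM in hND6 libraries, against 95.7, 115 and 73.3 FPKM in mCherry libraries. Here mCherry 3 was the lowest library, not the highest, and hND6 1 was the next lowest. Between the groups the log2 fold change was 0.12 (-0.31 to 0.56, limma adjusted p = 0.778) and -0.048 (-0.38 to 0.28, adjusted p = 0.866) without mCherry 3. Cntn2 (chromosome 1, 132511782 to 132542939) is the neighbour of Nfasc on the same strand, with 21750 bases between them. Both were abundant and both were highest in mCherry 2, as were Kcna1, Bcan and 21.8% of all tested genes. Tmem81, the next protein-coding gene beyond Cntn2, stood at 4.39 to 6.93 FPKM in hND6 libraries and 3.29 to 4.29 FPKM in mCherry libraries. Lrrn2, the next beyond Nfasc, stood at 3.04 to 7.29 FPKM in hND6 libraries and 4.75 to 16.9 FPKM in mCherry libraries.

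Kcna1 encodes Kv1.1, a pore subunit of the juxtaparanodal potassium channel. It is a compact gene on chromosome 6 (126640397 to 126644796). Levels of 42.3, 52.0 and 49.2 FPKM in hND6 libraries stood against 44.1, 52.5 and 41.6 FPKM in mCherry libraries. The libraries of both groups were interleaved, and the log2 fold change of 0.055 had an interval of -0.24 to 0.35 (limma adjusted p = 0.859). Without mCherry 3 it was -0.014 (-0.32 to 0.29, adjusted p = 0.958). The next gene on that chromosome, Kcna6 for Kv1.6, lay 63.5 kb away at a similar level, 38.8 to 46.3 FPKM in hND6 libraries and 33.5 to 43.4 FPKM in mCherry libraries. Kcna5, on the other side, was at 0.389 to 0.959 FPKM in hND6 libraries and 0.495 to 1.74 FPKM in mCherry libraries.

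Kcna2 encodes Kv1.2, which joins Kv1.1 in the same channels, and lies on chromosome 3 (107101567 to 107115005). It stood at 5.37, 4.49 and 3.51 FPKM in hND6 libraries and 2.94, 3.82 and 6.54 FPKM in mCherry libraries. The hND6 mean of 4.46 ± 0.929 FPKM and the mCherry mean of 4.43 ± 1.88 FPKM (SD, n = 3 each) nearly coincided. This gave a log2 fold change of 0.057 (-0.64 to 0.75, limma adjusted p = 0.941). It was 0.35 (-0.17 to 0.87, adjusted p = 0.390) without mCherry 3, where hND6 1 and hND6 2 then exceeded both remaining mCherry libraries.

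**Figure D2:**
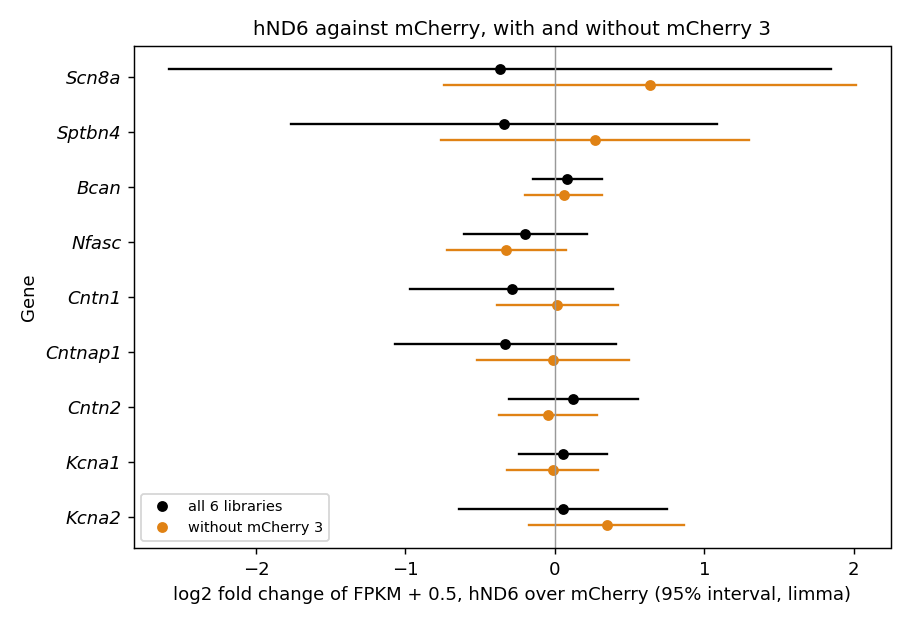
Log2 fold change of hND6 over mCherry for each gene on the log2(FPKM + 0.5) scale, with limma's 95% interval, from all 6 libraries (black) and without mCherry 3 (orange). Each interval includes 0, and that of Scn8a, from -2.58 to 1.85 with all libraries, is the widest.

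By mean level over the 6 libraries the order was Cntn2 (98.2 FPKM), Nfasc (81.5), Bcan (49.97), Kcna1 (46.9), Cntn1 (24.9), Cntnap1 (6.47), Sptbn4 (5.96), Kcna2 (4.45) and Scn8a (4.31 FPKM). The ranges of Cntn2 and Nfasc overlapped, as did those of Bcan and Kcna1, and the lowest 4 genes overlapped with each other. Between these sets the ranges did not overlap, although the lowest Kcna1 value of 41.6 FPKM and the highest Cntn1 value of 40.9 FPKM, both from mCherry 3, nearly met. Over the 6 libraries the SD of the log2 level was 1.28 for Scn8a, above 97.8% of tested genes, and 0.83 for Sptbn4, above 94.3%, where the median of all tested genes was 0.22. Cntnap1 was at 0.45, Cntn1 at 0.41, Kcna2 at 0.38, Nfasc and Cntn2 at 0.24 each, Kcna1 at 0.15 and Bcan at 0.11. Over the 4 libraries other than hND6 1 and mCherry 3 it was 0.19 for Scn8a, above 46.7% of genes, while Sptbn4 had an SD of 0.61, above 94.4%, and the other 7 genes lay between 0.097 (Cntn1) and 0.22 (Kcna2 and Nfasc).

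The library mCherry 3 divided the 9 genes. In it Scn8a was 6.41-fold, Sptbn4 3.22-fold, Cntnap1 2.02-fold, Cntn1 1.89-fold and Kcna2 1.62-fold the mean of the other 5 libraries. The other 4 genes were below that mean, with ratios of 0.926 for Bcan, 0.867 for Nfasc, 0.866 for Kcna1 and 0.710 for Cntn2. Among all tested genes 20.6% were highest in mCherry 3. The general neuron markers were higher there too: their median in mCherry 3 was 2.52 above the other libraries on the log2(FPKM + 0.5) scale, where Scn8a was 2.64, Sptbn4 1.66, Cntnap1 0.97, Cntn1 0.91 and Kcna2 0.66 above. Markers of mature oligodendrocytes had a median of -0.49 on that scale and astrocyte markers -0.21, where Cntn2 was at -0.49, Kcna1 at -0.20, Nfasc at -0.19 and Bcan at -0.11. The retinal ganglion cell factors Pou4f1 and Pou4f2 were at 0.242 FPKM or less in each library, while the 8 ganglion cell markers summed to 28.1 to 47.7 FPKM in hND6 libraries and 37.4 to 96.8 FPKM in mCherry libraries. Of the 3 that were tested, Nell2 was 3.27 above the other libraries in mCherry 3, at 68.7 FPKM, Rbpms 0.016 above, and Sncg was at -0.30. The part of any of these cells in the values of the 9 genes was not tested.

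**Figure D3:**
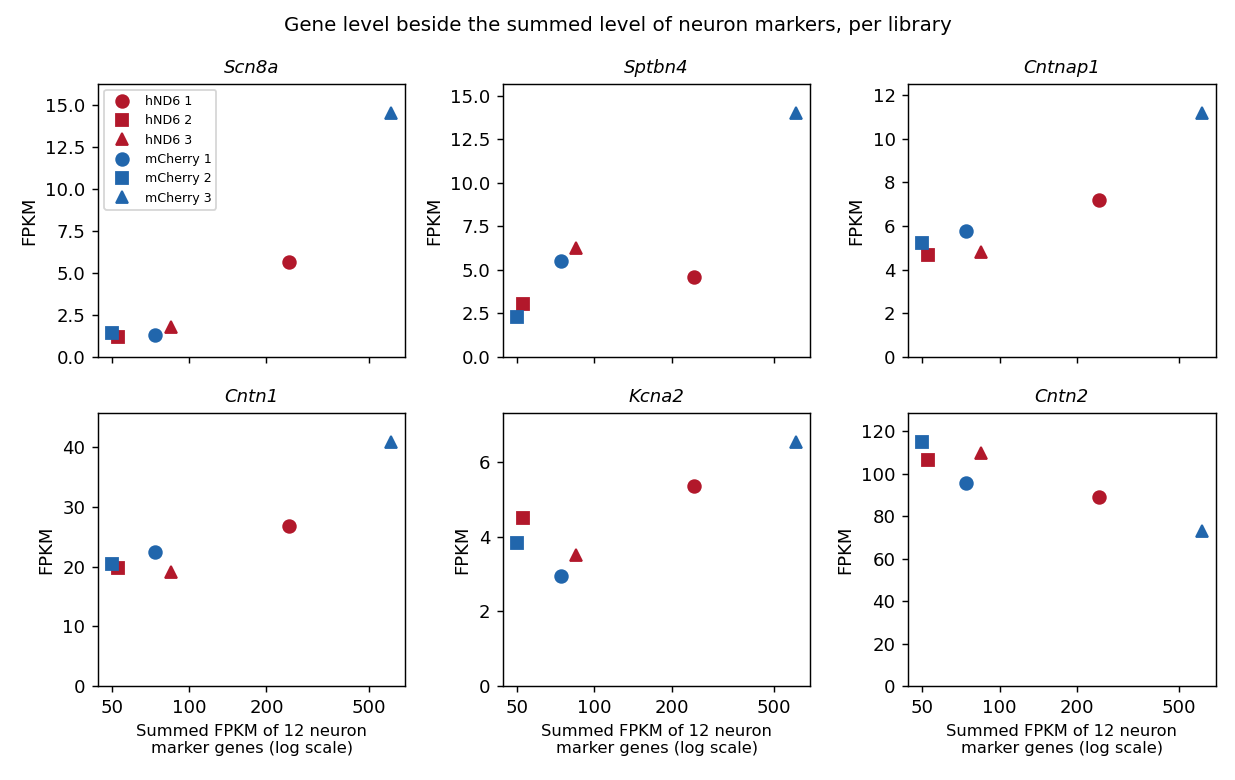
FPKM of 6 genes on a linear axis from 0 against the summed FPKM of 12 general neuron markers on a log axis, with 1 point per library. In mCherry 3, at a marker sum of 612 FPKM, Scn8a, Sptbn4, Cntnap1, Cntn1 and Kcna2 are highest and Cntn2 is lowest.

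Cntnap1 and Cntn1, the axonal partners of the paranode, kept nearly the same proportion in every library. Whether this is particular to the pair was not tested. Among 13120 other protein-coding genes, Prr7, Plxna4 and Ccdc149 followed Cntnap1 most closely (Pearson r of 0.998 to 0.999 over the 6 libraries). The ratio of Cntnap1 to Cntn1 FPKM was 0.267, 0.237 and 0.251 in hND6 libraries and 0.258, 0.256 and 0.273 in mCherry libraries, although Cntnap1 itself varied 2.40-fold and Cntn1 2.14-fold between libraries. The difference of the mean log2 ratios was -0.042 (exact two-sided permutation p = 0.4, adjusted p = 1 over the 3 ratios, smallest possible p = 0.1). With the gene span trend taken out of each library, the difference was -0.34, since this setting moves the long gene Cntn1 and leaves Cntnap1 at -0.34. The Kcna1 to Kcna2 ratio was 7.89, 11.6 and 14.0 in hND6 libraries and 15.03, 13.7 and 6.36 in mCherry libraries, lowest in the pair with the most neuron marker RNA, with a difference of -0.00124 on the log2 scale (exact p = 1). The Sptbn4 to Scn8a ratio varied most, at 0.820, 2.52 and 3.48 in hND6 libraries and 4.33, 1.61 and 0.965 in mCherry libraries, with a difference of 0.030 (exact p = 1). Without single libraries the last 2 differences took either sign.

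**Figure D4:**
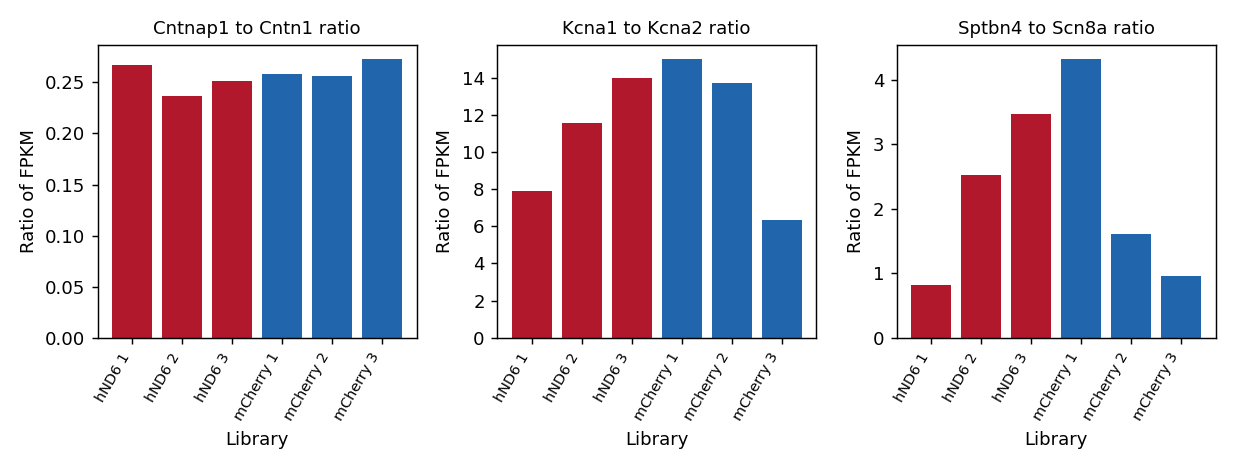
Ratios of FPKM within each library for 3 pairs of genes, on axes from 0, hND6 in red and mCherry in blue. The Cntnap1 to Cntn1 ratio stays between 0.237 and 0.273, while the Kcna1 to Kcna2 and Sptbn4 to Scn8a ratios are lowest in hND6 1 and mCherry 3.

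The other genes of these domains were taken from 4 lists of channels and scaffolds, matrix, paranode and juxtaparanode genes. Of 40 genes 39 were tested, and 0 passed in limma over all genes, with 7 at an unadjusted p under 0.05 (1 higher and 6 lower in hND6) and 0 passing in voom. Over all tested genes 15.2% had such a p, 9.11% higher and 6.05% lower. Of the 39, 12 had a positive and 27 a negative log2 fold change and the median was -0.21, where 48.6% of all tested genes were positive. The groups did not overlap for 6 of the 39 (15.4%), 1 higher and 5 lower in hND6, where 12.6% of all tested genes were higher and 10.2% lower. The count of negative values was 30 on the TPM scale and with quantile normalisation. The median of all tested genes lay at -0.14 on the TPM scale and at -0.0089 with quantile normalisation. The count was 21 without mCherry 3, and 20 once each library's trend with gene span was removed. In these 2 settings the medians of the 39 were -0.0083 and -0.0062.

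Omg, the oligodendrocyte myelin glycoprotein found near nodes, came closest. It was at 32.5, 36.5 and 31.0 FPKM in hND6 libraries, against 21.2, 23.8 and 23.5 FPKM in mCherry libraries. These groups did not overlap, and the log2 fold change was 0.53 ± 0.093 (SE, limma adjusted p = 0.150). Without mCherry 3 it was 0.56 (adjusted p = 0.067), and with the gene span trend taken out it was 0.31 (adjusted p = 0.539). Among channels and scaffolds, Kcnq3, a subunit of the nodal M-type potassium channel and the most abundant of its list, averaged 54.0 ± 5.04 FPKM in hND6 and 72.3 ± 11.8 FPKM in mCherry (log2 fold change -0.41 ± 0.14, SE, limma adjusted p = 0.265). The cell adhesion gene Nrcam averaged 31.6 ± 1.83 FPKM in hND6 and 42.1 ± 6.82 FPKM in mCherry (log2 fold change -0.40 ± 0.13, adjusted p = 0.256). Both had non-overlapping groups, and with the gene span trend removed their log2 fold changes were -0.11 for Kcnq3 and -0.12 for Nrcam. Without mCherry 3 they were -0.51 for Kcnq3 (limma adjusted p = 0.098) and -0.29 for Nrcam (adjusted p = 0.201). Quantile normalisation gave -0.50 for Kcnq3 and -0.43 for Nrcam.

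In the matrix list Tnr, for tenascin R, averaged 15.2 ± 1.83 FPKM in hND6 and 21.0 ± 3.74 FPKM in mCherry (limma adjusted p = 0.276). Hapln2, the link protein Bral1 of nodes and the most abundant there, averaged 131 ± 16.2 FPKM in hND6 and 113 ± 33.3 FPKM in mCherry (adjusted p = 0.656). Of the paranode list, Ank2 for ankyrin B averaged 106 ± 2.59 FPKM in hND6 and 127 ± 13.5 FPKM in mCherry (adjusted p = 0.298), with a log2 fold change of -0.26 that turned to 0.10 with the gene span trend removed. Mal, a myelin proteolipid gene, averaged 416 ± 43.8 FPKM in hND6 and 314 ± 81.1 FPKM in mCherry (adjusted p = 0.369). At the juxtaparanode, Adam22, an LGI receptor bound to Kv1 channels, averaged 16.0 ± 1.45 FPKM in hND6 and 19.8 ± 2.15 FPKM in mCherry (adjusted p = 0.295). Kcna6 averaged 43.4 ± 4.07 FPKM in hND6 and 37.4 ± 5.26 FPKM in mCherry (adjusted p = 0.454), and the scaffold gene Dlg2 51.5 ± 13.4 FPKM in hND6 and 70.5 ± 22.1 FPKM in mCherry (adjusted p = 0.479). The ± in these means is the SD of 3 libraries a group. With the gene span trend removed the log2 fold change of Adam22 was -0.0062 in place of -0.30, that of Tnr -0.11 in place of -0.45, that of Dlg2 0.074 in place of -0.44, and that of Hapln2 0.097 in place of 0.25. Without mCherry 3 Hapln2 was at -0.0083, Dlg2 at -0.19, Adam22 at -0.22, Tnr at -0.35, Ank2 at -0.30, Mal at 0.32 and Kcna6 at 0.15.

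**Figure D5:**
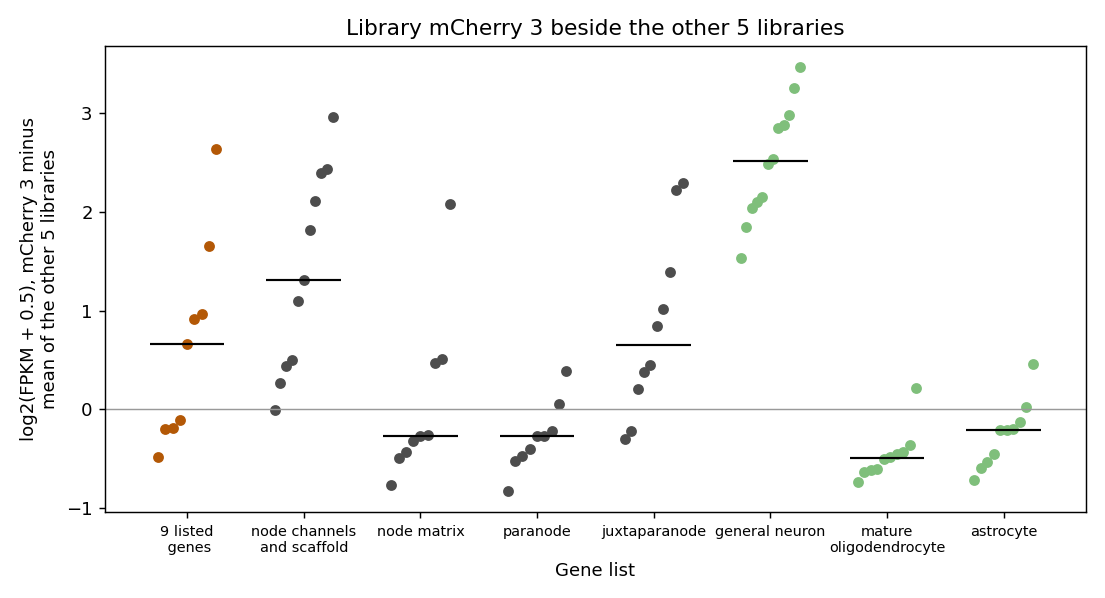
Log2(FPKM + 0.5) in mCherry 3 minus the mean of the other 5 libraries for the tested genes of each list, with 1 point per gene and a line at the median. The 9 listed genes run from -0.49 (Cntn2) to 2.64 (Scn8a), the neuron markers all lie above 0, and the medians of oligodendrocyte and astrocyte markers lie below 0.

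In the wider lists, of 11 tested channel and scaffold genes 8 were highest in mCherry 3, and so were 8 of 10 juxtaparanode genes, against 2 of 9 matrix genes, 1 of 9 paranode genes and 20.6% of all tested genes. The 9 genes followed these domains only in part. Scn8a and Sptbn4 of the node and Kcna2 of the juxtaparanode were highest in mCherry 3. Bcan of the matrix and Nfasc of the paranode were highest in mCherry 2. The paranode genes Cntn1 and Cntnap1, however, were highest in mCherry 3, and the juxtaparanode genes Cntn2 and Kcna1 were lowest there. Cntnap2, for Caspr2, stood at 8.99, 1.29 and 2.41 FPKM in hND6 libraries and 3.30, 1.63 and 14.9 FPKM in mCherry libraries.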

How the data were processed

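Ribosomal-RNA-depleted total RNA of optic nerve was sequenced in 3 hND6 and 3 mCherry libraries with a stranded kit, per the labels. The deposited values are FPKM, scaled by the authors to exon length and library size, and CASAVA 1.4, Trim Galore, STAR, HTSeq, mm10 and GRCm38 are named, with no role, in the submitters' processing notes. The 6 single-library tables equalled the combined table. The deposited gene table gives positions and lengths in bases. Multiplied by exon length, at least 99.99% of FPKM above 0 fell within 0.1 read of a whole read count, and these counts are the reads given here. No member shared its strand with another gene except Sptbn4, with 1037 bases of Gm20479.

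Genes averaging 0.5 FPKM or more were tested on log2(FPKM + 0.5) with limma 3.58.1 in R 4.3.3 (moderated test with an intensity trend, Benjamini-Hochberg over 16157 genes, threshold 0.05), which was tested on simulated reads. Such fold changes understate changes of low genes. Ratios were compared with exact permutation tests. The text names all 9 members and, from each of the 4 further lists, the 2 genes of smallest p and the most abundant gene. Cntnap2 and the marker genes were picked after their values were seen. A gene that this choice would take is not reported here. The members, lists and settings were chosen with earlier results of these data known. The labels give no batch.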

Additional observations from a re-analysis of the deposited data

How the results depend on the processing

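Of 198 member values under the 22 other settings, 27 took the other sign and none was called. Of the other 171, 45 come from 5 settings (no filter, a filter of 1 FPKM, no trend, a robust test and the replicate block) that leave the fold change as it is by construction. The 7 genes called higher over all genes became 0 with no filter, with the replicate block and with voom on recovered reads, 4 with sex (read from Xist, chosen after the data were seen) as a covariate, 1 without mCherry 3 and hND6 1 and 0 without mCherry 3 and hND6 2. Leaving out single libraries gave 0 to 116 higher and 0 to 15 lower. Same-numbered libraries deviated together in 1 of 3 pairs (correlations of -0.416, 0.363 and -0.197). The highest correlation, 0.555, was between hND6 1 and mCherry 3, the libraries with the most neuron marker RNA. With 3 libraries a group, such values cannot decide whether the numbers mark a pairing. The replicate block left each member's log2 fold change as it was and called 0 members.

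Single-library ranges were -0.91 to 0.64 for Scn8a, -0.92 to 0.27 for Sptbn4, -0.48 to 0.017 for Cntn1, -0.048 to 0.28 for Cntn2, -0.014 to 0.15 for Kcna1 -0.17 to 0.35 for Kcna2, -0.32 to -0.046 for Nfasc, -0.53 to -0.010 for Cntnap1 and 0.026 to 0.16 for Bcan (log2 fold changes), -0.36 to 0.21 for the Kcna1 to Kcna2 ratio and -0.37 to 0.55 for the Sptbn4 to Scn8a ratio. On the TPM scale Bcan was -0.063, Cntn2 -0.022, Kcna1 -0.089 and Kcna2 -0.071. Quantile normalisation gave -0.00292 for Cntn2. With the gene span trend removed the Cntnap1 to Cntn1 ratio was -0.34, Cntn1 was 0.00217, Nfasc 0.030, Kcna1 -0.13 and the Sptbn4 to Scn8a ratio -0.052. Sptbn4 was 0.063 with sex as a covariate. Without mCherry 3 and hND6 1, Scn8a was 0.093 and Sptbn4 0.24. Without mCherry 3 and hND6 2, Scn8a was 1.02, Sptbn4 0.51, Cntn1 0.083, Cntnap1 0.091, Cntn2 -0.084, Kcna1 -0.076, the Cntnap1 to Cntn1 ratio 0.00833 and the Sptbn4 to Scn8a ratio -0.50. A pseudocount of 1 gave 0.00746 for the Kcna1 to Kcna2 ratio. Beyond the settings' own construction, the causes were not tested.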

Other observations

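Sptbn4 was highest in the 3 libraries that held Xist RNA at 45.0 FPKM or more and Y-linked RNA at 0.0812 FPKM or less, at 6.26 FPKM in hND6 3, 5.54 FPKM in mCherry 1 and 14.0 FPKM in mCherry 3, against 4.61 FPKM in hND6 1, 3.02 FPKM in hND6 2 and 2.31 FPKM in mCherry 2. With sex read from these genes as a covariate, its log2 fold change of hND6 over mCherry was 0.063 (-1.06 to 1.19, limma adjusted p = 0.967). Without the covariate it was -0.34 (-1.76 to 1.09), and the 2 intervals largely overlap. Among the libraries with Xist RNA hND6 3 alone is from the hND6 group, so sex and group are not balanced. mCherry 3 is also the library with the most neuron marker RNA. The pattern was noticed after the values were seen, and the share of all tested genes that divide in this way was not computed. The difference between the sexes was not tested.

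The genes most like a member in their log2 level across the 6 libraries were sought among 13120 protein-coding genes. For Scn8a they were Ankrd63, Slc4a3 and Serpini1 (Pearson r of 0.998 to 0.999), and Serpini1, which encodes neuroserpin, stood at 4.93, 0.779 and 1.43 FPKM in hND6 libraries and 1.11, 1.11 and 14.5 FPKM in mCherry libraries. For Cntnap1 they were Prr7, Plxna4 and Ccdc149 (0.998 to 0.999), for Cntn2 Fbrs, Ralgds and Nipal4 (0.993 to 0.997), and for Nfasc Klhl2, Abhd17b and Ccdc12 (0.994 to 0.996). These are the highest of many values over the same 6 libraries and carry no test.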
